A study of Mus musculus with 7 samples.

Results

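SWI/SNF complexes are chromatin remodelers that use ATP to slide or evict nucleosomes, and 10 genes for their subunits were followed in aged mouse skin, of 55450 genes in the count table. They are Pbrm1, Arid2 and Brd7, which belong to the PBAF form of the complex, Arid1a and Arid1b, which belong to the BAF form, the ATPases Smarca2 and Smarca4, and the core subunits Smarcb1, Smarcc1 and Smarcc2. Pbrm1 entered the set because it fell after ABT-263 in these same libraries, so its values are given as a description with no test, and the question asked was whether the other PBAF subunits and the shared subunits changed with it. All 10 genes passed the filter on low counts.

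Skin was taken from the back of male wild-type C57BL/6 mice aged 24 months, whose hair was removed before treatment. Each mouse received either 5 µM ABT-263 (navitoclax, an inhibitor of anti-apoptotic Bcl-2 family proteins used to remove senescent cells) in DMSO on 3 animals (mice 476, 477 and 478) or DMSO alone on 4 animals (mice 480, 481, 482 and 483), for 5 days under a dressing. Polyadenylated RNA of the whole skin homogenate was sequenced, with 1 library per mouse. Libraries held between 20344364 and 43562330 counted read pairs, and the 3 treated ones were the largest. Each member had between 1054 and 7557 counts per library.

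A SWI/SNF complex is built around a single ATPase, SMARCA4 or SMARCA2, together with a core that in BAF and PBAF holds SMARCC subunits and SMARCB1. The forms are then set apart by subunits that do not occur together. An ARID1 protein marks BAF, ARID2 with PBRM1 and BRD7 marks PBAF, and BRD9 marks a noncanonical form that lacks SMARCB1. PBRM1 and BRD7 carry bromodomains, which bind acetylated lysines of histones, and both have been tied to p53 and p21 responses in cultured cells. In skin, Smarca4 is known for its part in keratinocyte differentiation and in the regeneration of hair follicles.

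Sequence upstream of the members is shown for the gene the set was chosen around, for another PBAF gene and an ATPase gene that were lower after ABT-263, and for a core gene that did not pass the test. RefSeq promoters on GRCm38.p6 were held for 9 of the 10 members, all but Arid2, and the windows examined ran from 250 to 51 bases before the start site. Both strands were searched for the GC box GGGCGG, the CCAAT box CCAAT, the E-box CACGTG and the ETS motif CCGGAAG, and capitals below mark a match. The Pbrm1 window overlaps an exon of Gnl3, its neighbor on the opposite strand, and 30 bases around the match are shown. That stretch is at chr14:31018991-31019020 on the plus strand, the Brd7 window at chr8:88362223-88362422 on the minus strand, the Smarca4 window at chr9:21615919-21616118 on the plus strand and the Smarcb1 window at chr10:75921665-75921864 on the minus strand.
Pbrm1: cttctcgggcgcCACGTGcgaactggaact
Brd7: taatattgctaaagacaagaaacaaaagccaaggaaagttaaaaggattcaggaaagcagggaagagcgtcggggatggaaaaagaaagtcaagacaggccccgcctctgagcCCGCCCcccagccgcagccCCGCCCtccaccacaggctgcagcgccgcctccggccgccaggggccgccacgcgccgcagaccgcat
Smarca4: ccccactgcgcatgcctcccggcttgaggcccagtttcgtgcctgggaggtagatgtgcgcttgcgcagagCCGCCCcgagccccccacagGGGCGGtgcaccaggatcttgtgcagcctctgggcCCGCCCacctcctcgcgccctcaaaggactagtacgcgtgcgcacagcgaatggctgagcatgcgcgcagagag
Smarcb1: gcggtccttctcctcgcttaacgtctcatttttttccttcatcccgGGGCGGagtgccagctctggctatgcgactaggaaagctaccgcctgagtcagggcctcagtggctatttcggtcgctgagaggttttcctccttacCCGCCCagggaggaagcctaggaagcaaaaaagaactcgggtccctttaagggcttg

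The match in Pbrm1 is an E-box, a motif in 4.34% of 32851 promoter windows and in none of the other members with a window. The matches in Brd7, Smarca4 and Smarcb1 are GC boxes, which were found in 24.6% of all windows and in 6 member genes (Arid1a, Arid1b, Brd7, Smarca2, Smarca4 and Smarcb1). The ETS motif was in 3.98% of all windows and in Smarca2 and Smarcc1, and the CCAAT box was in 28.4% of all windows and in 0 of the 9 members with one. Member windows were between 56.0% and 83.0% G and C, against a median of 51.5% over all windows, and held 11 to 31 CpG dinucleotides against a median of 4. By the gene positions used here, the Arid1b window (chr17:4994824-4995023) and an Arid1a window (chr4:133754036-133754235) lie inside the gene. The Smarca2 window (chr19:26604910-26605109) runs past the start of its gene at 26605050. The Arid1b and Smarca2 windows also overlap an annotated exon. All matches named here are of letters and do not show binding.

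Pbrm1 (ENSMUSG00000042323), on chromosome 14 from 31019138 to 31121592 (GRCm38, plus strand), was at 136, 149.5, 149 and 148 CPM (counts scaled to the library total with the TMM method) in DMSO mice 480 to 483. After ABT-263 it was at 62.3, 68.9 and 54.8 CPM in mice 476 to 478. Every treated mouse was far below every control mouse, and the group means were 146 ± 6.56 CPM (SD, n = 4) and 62.0 ± 7.04 CPM (SD, n = 3). The log2 fold change was -1.23, which put treated skin at 42.5% of the DMSO level. With each mouse left out in turn, this value lay between -1.29 and -1.15. In bulk RNA of whole skin, fewer cells that express a gene and less of its RNA per cell cannot be told apart.

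Of the 9 members besides Pbrm1, 7 were lower in treated skin with an adjusted p under 0.05, 0 were higher and 2 did not pass the threshold (edgeR quasi-likelihood test, Benjamini-Hochberg adjustment over 17959 genes). Over all genes tested 11.7% were called lower and 12.4% higher, and among the 3636 genes with a mean CPM at least as high as the lowest member 19.7% were called lower and 9.63% higher. At an unadjusted p under 0.05 the count was also 7 lower and 0 higher, and the DESeq2 Wald test gave 7 and 0 as well. No share over all genes is given for either of these counts, so they have no background to be read against. The median log2 fold change of the 9 genes was -0.59, beside 0.0022 over all genes tested. No median is given over the 3636 more abundant genes, of which more were called lower than higher. In the same 7 genes all treated mice were below all control mice, a separation found for 18.4% of genes tested and for 28.4% of those 3636 more abundant genes. With 1 mouse left out, 4 to 7 members were called, the lowest counts coming without DMSO mouse 482 or without ABT-263 mouse 476. Since Pbrm1 was picked on this contrast with results in view, these counts describe the set.

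**Figure D1:**
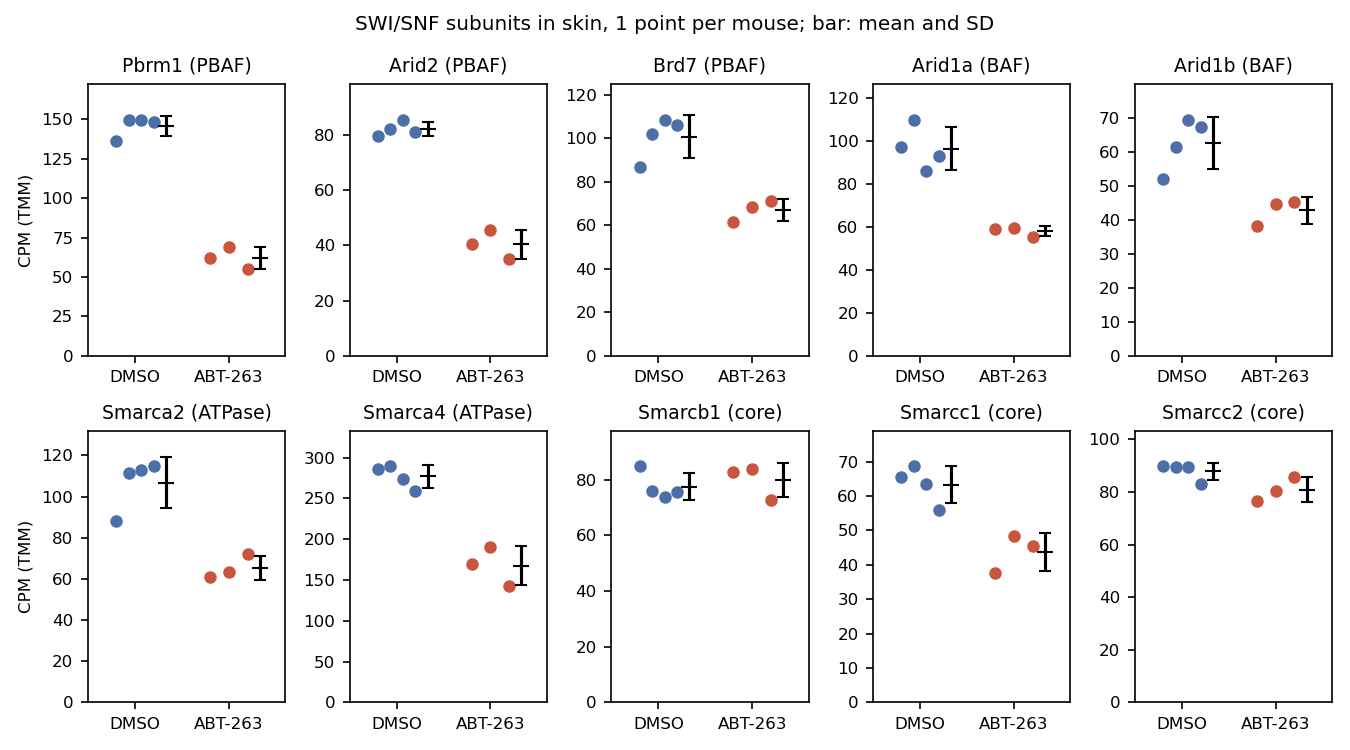
TMM-scaled CPM of each member (vertical axes from 0, 1 panel per gene) in the 4 DMSO mice (blue) and the 3 ABT-263 mice (red), with bars for the mean and SD. The groups are apart in all panels except those of Smarcb1 and Smarcc2, and Pbrm1 goes from a mean of 146 to 62.0 CPM.

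Arid2 (ENSMUSG00000033237), the DNA-binding subunit that defines PBAF together with Pbrm1, lies on chromosome 15 from 96287518 to 96404992. Its level was 79.4, 82.2, 85.3 and 80.8 CPM after DMSO and 40.4, 45.6 and 34.95 CPM after ABT-263. The control mice were close together, and the treated mouse with the highest value was still well below the lowest of them. Arid2 fell from 81.9 ± 2.52 CPM (SD, n = 4) in DMSO skin to 40.3 ± 5.35 CPM (SD, n = 3) in treated skin (log2 fold change -1.02, standard error 0.13, 95% interval -1.31 to -0.73, adjusted p = 0.00619 from edgeR). The call held whichever mouse was left out and under each other setting tried.

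Brd7 (ENSMUSG00000031660), the bromodomain subunit of PBAF, lies on chromosome 8 from 88331039 to 88362194. It was at 86.8, 102, 108 and 106 CPM after DMSO and at 61.5, 68.3 and 71.0 CPM after ABT-263. Mouse 480 was the lowest control, above all treated mice. The means were 100.7 ± 9.68 CPM (SD, n = 4) and 66.9 ± 4.92 CPM (SD, n = 3) and the log2 fold change, nearer to zero than that of Arid2, was -0.59 (standard error 0.13, 95% interval -0.88 to -0.29, adjusted p = 0.0175 from edgeR). Without DMSO mouse 482 the adjusted p was 0.0549, without DMSO mouse 483 it was 0.0512, and without ABT-263 mouse 476 it was 0.0576, within a range of 0.0133 to 0.0576 over the mice left out. In every library the log2 level of Arid2 was below that of Brd7, by an average of -0.29 after DMSO and -0.74 after ABT-263, and the per-mouse differences of the groups did not overlap.

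Arid1a and Arid1b, the alternative ARID subunits of BAF, were both lower too. Arid1a (ENSMUSG00000007880), on chromosome 4 from 133679008 to 133756769, was at 97.1, 109.6, 85.9 and 92.8 CPM after DMSO and at 59.1, 59.6 and 55.5 CPM after ABT-263. The treated mice lay within a narrow band below the controls. Its means of 96.3 ± 9.99 CPM (SD, n = 4) and 58.1 ± 2.28 CPM (SD, n = 3) gave a log2 fold change of -0.73 (standard error 0.13, 95% interval -1.02 to -0.44, adjusted p = 0.00933 from edgeR).

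Arid1b (ENSMUSG00000069729), on chromosome 17 from 4994332 to 5347656, was at 52.1, 61.4, 69.3 and 67.3 CPM after DMSO and at 38.2, 44.8 and 45.3 CPM after ABT-263. The groups did not overlap, although mouse 480 was not far above the highest treated mouse. The means were 62.5 ± 7.73 CPM (SD, n = 4) and 42.8 ± 3.94 CPM (SD, n = 3), and the log2 fold change was -0.55 (standard error 0.14, 95% interval -0.87 to -0.23, adjusted p = 0.0278 from edgeR). This call was among the least stable of the set. It was lost without DMSO mouse 481 (adjusted p = 0.0529), 482 (0.0768) or 483 (0.0712) and without ABT-263 mouse 476 (0.0874) or 478 (0.0684), the range over mice left out being 0.0174 to 0.0874. It was also lost once GC and length trends of the transcripts were taken out (log2 fold change -0.37, adjusted p = 0.0600) and with all genes that had a count tested (adjusted p = 0.05003, just over the threshold).

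The ATPases Smarca2 and Smarca4, which occupy the same place in alternative complexes, were both lower. Smarca2 (ENSMUSG00000024921), on chromosome 19 from 26605050 to 26778322, was at 88.2, 112, 113 and 115 CPM after DMSO and at 61.0, 63.2 and 72.0 CPM after ABT-263. All treated mice were below mouse 480, the lowest control. Smarca2 went from 107 ± 12.5 CPM (SD, n = 4) in DMSO skin to 65.4 ± 5.83 CPM (SD, n = 3) in treated skin (log2 fold change -0.71, standard error 0.14, 95% interval -1.03 to -0.39, adjusted p = 0.0134 from edgeR). The annotation places 58.5% of its exon bases in introns of its longest coding transcript, so the gene's count can hold reads of short internal transcripts and of unspliced RNA.

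Smarca4 (ENSMUSG00000032187), on chromosome 9 from 21616169 to 21704230, had the highest counts of the set, with 287, 289, 274 and 259 CPM after DMSO. After ABT-263 it was at 170.2, 190.5 and 142 CPM, so the treated mice varied more than the controls but stayed below them. The means were 277 ± 13.97 CPM (SD, n = 4) and 168 ± 24.1 CPM (SD, n = 3), and the log2 fold change was -0.72 (standard error 0.15, 95% interval -1.06 to -0.39, adjusted p = 0.0138 from edgeR). Arid2, Arid1a, Smarca2 and Smarca4 were the members whose calls held in all 7 fits without a mouse and in all 9 other settings.

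Of the core subunits, Smarcc1 passed the threshold and Smarcb1 and Smarcc2 did not. Smarcb1 (ENSMUSG00000000902), which anchors the complex to the nucleosome and lies on chromosome 10 from 75896769 to 75921617, was at 84.8, 76.0, 73.9 and 75.5 CPM after DMSO and at 82.9, 84.0 and 72.7 CPM after ABT-263. The groups overlapped, with the highest value in a control and the lowest in a treated mouse. The means were 77.5 ± 4.93 CPM (SD, n = 4) and 79.9 ± 6.22 CPM (SD, n = 3), and the log2 fold change of 0.043 did not pass the threshold (standard error 0.12, 95% interval -0.22 to 0.31, adjusted p = 0.812 from edgeR). In Smarcb1 79.1% of exon bases lie in introns of the longest coding transcript.

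Smarcc2 (ENSMUSG00000025369), a scaffold subunit on chromosome 10 from 128459248 to 128490482, was at 89.7, 89.4, 89.5 and 83.0 CPM after DMSO and at 76.6, 80.5 and 85.8 CPM after ABT-263. Only mouse 483 among the controls lay within the range of the treated mice. Its means of 87.9 ± 3.28 CPM (SD, n = 4) and 81.0 ± 4.59 CPM (SD, n = 3) gave a log2 fold change of -0.12 that did not pass the threshold (standard error 0.11, 95% interval -0.37 to 0.13, adjusted p = 0.449 from edgeR).

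Smarcc1 (ENSMUSG00000032481), the paralog of Smarcc2 on chromosome 9 from 110117708 to 110240178, was at 65.5, 68.6, 63.3 and 55.9 CPM after DMSO and at 37.7, 48.3 and 45.3 CPM after ABT-263. Here the treated mice were all below the controls. The means were 63.3 ± 5.42 CPM (SD, n = 4) and 43.8 ± 5.46 CPM (SD, n = 3) with a change of -0.53 on the log2 scale (standard error 0.13, 95% interval -0.84 to -0.23, adjusted p = 0.0267 from edgeR). The call was lost without DMSO mouse 481 (adjusted p = 0.0569) or 482 (0.0683), without ABT-263 mouse 476 (0.0824) or 478 (0.0721), the range over mice left out being 0.0331 to 0.0824, and with all genes that had a count tested (0.0526).

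**Figure D2:**
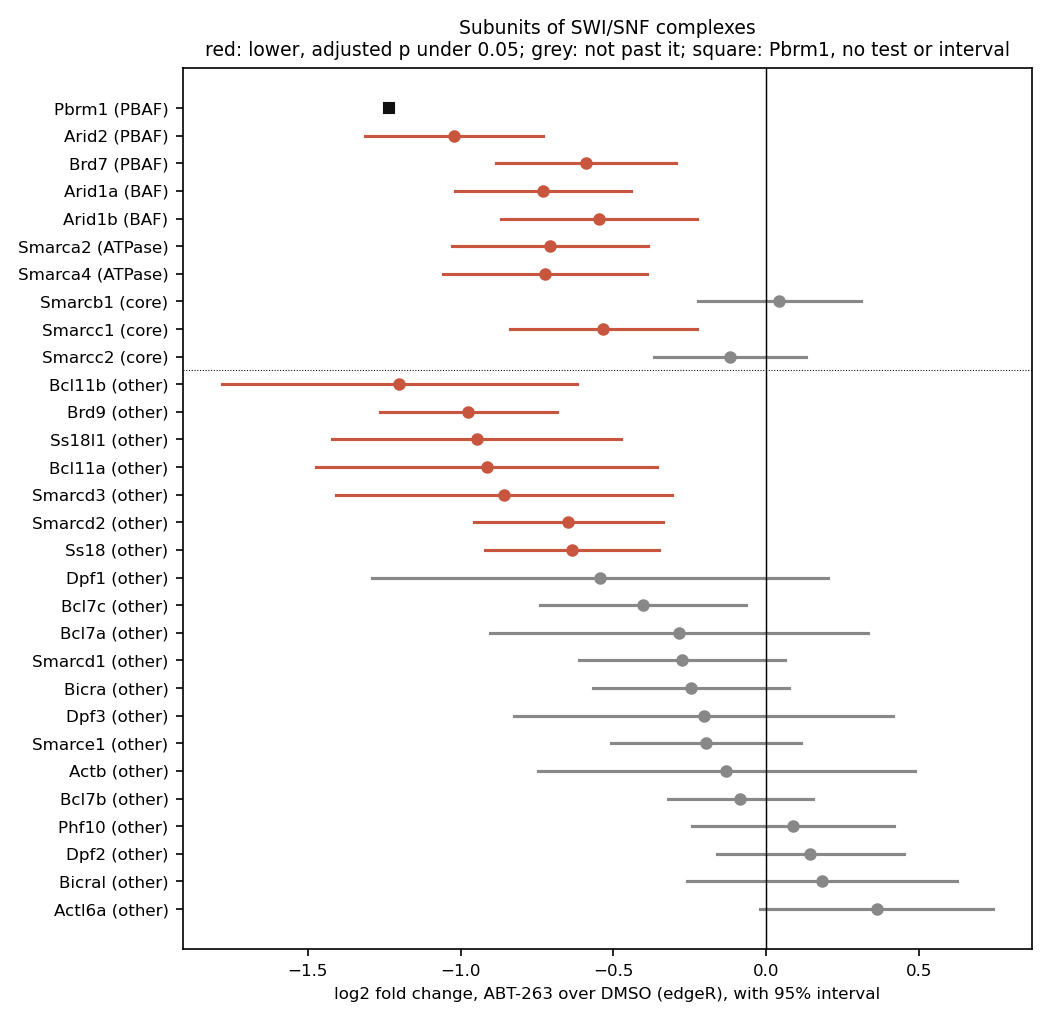
The log2 fold change of ABT-263 over DMSO (edgeR, horizontal axis), with its 95% interval for all genes except Pbrm1, for the 10 members above the dotted line and the 20 other SWI/SNF subunits tested below it, in red where lower at an adjusted p under 0.05 and in grey where not past it. Pbrm1, the square at -1.23 with no test or interval, and Arid2, at -1.02, are the lowest members, while Smarcb1, at 0.043, sits at zero.

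Ratios within a library do not depend on its scaling, and 3 pairs of paralogs were compared with an exact permutation test over mice, two-sided, with adjustment over the 3 pairs. Smarcc1 was at 0.730, 0.767, 0.708 and 0.673 of the CPM of Smarcc2 in the DMSO mice and at 0.492, 0.600 and 0.529 in the ABT-263 mice. Every treated mouse had a lower ratio than every control mouse. The mean log2 ratio differed by -0.42 in treated skin (exact permutation p = 0.0286, the smallest that 4 against 3 mice allow, adjusted p = 0.0857), which did not pass the threshold after adjustment. At that smallest p, 1 pair alone can reach no adjusted p below 0.0857, so this pair could not pass by itself. The adjusted test therefore cannot decide whether the ratio changed.

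The ratio of Smarca2 to Smarca4 was 0.308, 0.386, 0.412 and 0.443 after DMSO and 0.358, 0.332 and 0.505 after ABT-263. These overlapped, and the log2 difference was 0.030 (exact permutation p = 0.886, adjusted p = 0.886) with standard deviations between mice of 0.23 and 0.32, which does not show that the ratio stayed the same. Its sign turned without DMSO mouse 480 (-0.077) and without ABT-263 mouse 478 (-0.15). The ratio of Arid1a to Arid1b overlapped as well, from 1.24 to 1.86 after DMSO and from 1.22 to 1.55 after ABT-263, with a log2 difference of -0.18 (exact permutation p = 0.343, adjusted p = 0.514).

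The PBAF subunits Arid2 and Brd7 were also set against the BAF subunits Arid1a and Arid1b, as the difference of their mean log2 CPM in each mouse. It was 0.22, 0.16, 0.32 and 0.23 after DMSO and 0.068, 0.11 and -0.0089 after ABT-263. All treated mice were below all controls, and the means differed by -0.17 (0.23 ± 0.066, SD, n = 4, and 0.057 ± 0.061, SD, n = 3), a value given without a test. Once GC and length trends of the transcripts were taken out this difference was -0.37. Phf10, a further subunit of PBAF, was not among the members and is not in this difference. Its log2 fold change was 0.087 (edgeR adjusted p = 0.688), above those of Arid1a and Arid1b. The log2 fold change of Brd7, -0.59, lay between those of the BAF subunits, and that of Arid2 lay below both. With GC and length trends taken out, Brd7, at -0.70, lay below Arid1a, at -0.56, and Arid1b, at -0.37.

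Pbrm1 itself kept closest to Arid2. The log2 ratio of Pbrm1 to Arid2 was 0.83 ± 0.048 (SD, n = 4) after DMSO and 0.62 ± 0.028 (SD, n = 3) after ABT-263, a difference of -0.21. Against Arid1a, Smarca2 and Smarca4 the ratio differed by -0.51, -0.53 and -0.51, and against Brd7, Arid1b and Smarcc1 by -0.65, -0.69 and -0.70. The largest differences were against Smarcc2, at -1.12, and Smarcb1, at -1.28, where Pbrm1 turned from the higher to the lower count of the pair. For all 9 partners the treated mice lay below the controls, and Pbrm1 was chosen for its fall.

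**Figure D3:**
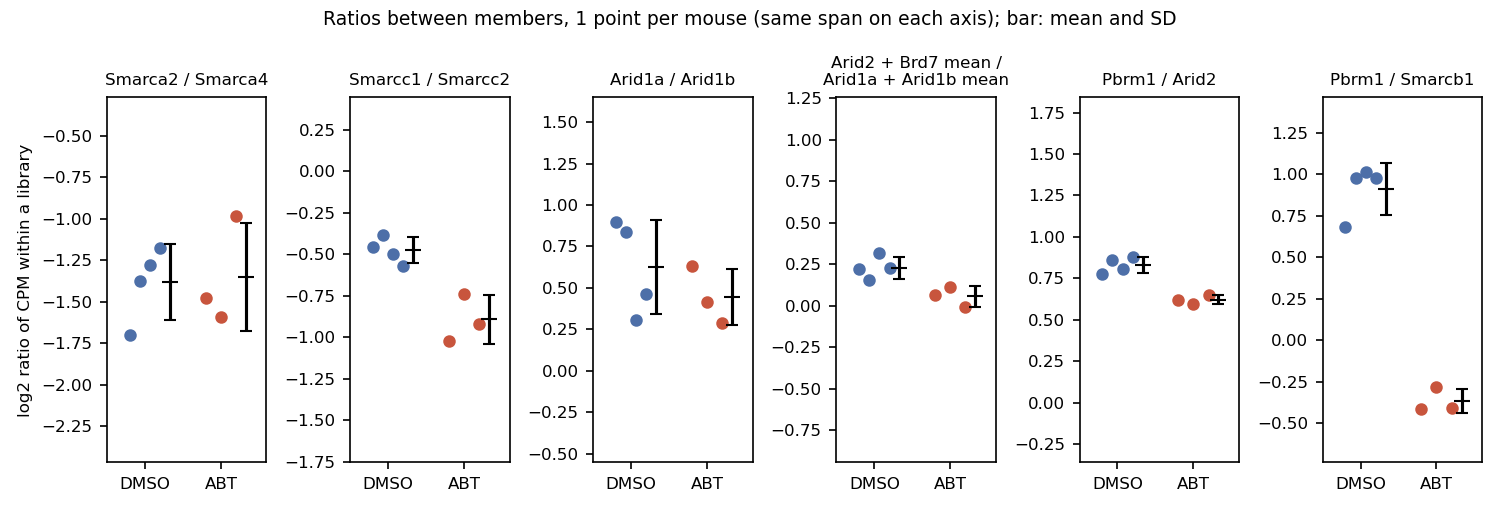
Log2 ratios of CPM within each library for 6 comparisons of members (1 panel each, vertical axes of equal span) in DMSO mice (blue) and ABT-263 mice (red), with bars for the mean and SD. Points overlap for Smarca2 to Smarca4 and for Arid1a to Arid1b and are apart in the other panels, by most in Pbrm1 to Smarcb1, where the means are 0.91 and -0.37.

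Mice also differed within their group. Among treated mice, 478 was the lowest for Pbrm1, Arid2, Arid1a, Smarca4 and Smarcb1, and 476 was the lowest for Brd7, Arid1b, Smarca2, Smarcc1 and Smarcc2. Among controls, 480 was the lowest for Pbrm1, Arid2, Brd7, Arid1b and Smarca2. The coefficient of variation between DMSO mice ran from 3.08% for Arid2 to 12.4% for Arid1b, and between ABT-263 mice from 3.92% for Arid1a to 14.4% for Smarca4.

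Across all 7 libraries, Pearson's r of log2 CPM with Pbrm1 was 0.997 for Arid2, which ranked 4 among 9728 protein-coding genes with a mean of at least 10 CPM. The genes above it were Tnrc6c, a scaffold of microRNA silencing, Ndufa2, a subunit of respiratory complex I, and Srek1, a splicing regulator, each at r = 0.998. Tnrc6c had mean levels of 87.1 CPM after DMSO and 36.7 CPM after ABT-263, Ndufa2 of 435 and 174 CPM, and Srek1 of 82.6 and 37.4 CPM. The other members ranked lower, with r of 0.974 for Smarca4 (rank 213), 0.960 for Arid1a (rank 394) and 0.934 for Brd7 (rank 670). For Smarca2 r was 0.922 (rank 806), for Arid1b 0.894 (rank 1062) and for Smarcc1 0.892 (rank 1078). It was 0.66 for Smarcc2 (rank 2547) and -0.19 for Smarcb1 (rank 5312). Many genes outside the set thus followed Pbrm1 more closely than these members did. These values hold the difference between treatments, which all 7 libraries share, and are a description.

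Levels between genes were compared as CPM per kilobase of merged exons (RPKM). In DMSO skin Smarca4 was the most abundant member at 42.8 ± 2.16 RPKM (SD, n = 4), above all others without overlap. Brd7 at 19.2 ± 1.85, Pbrm1 at 16.5 ± 0.742 and Smarcc2 at 15.8 ± 0.591 RPKM followed, and neighbors in that order overlapped. Smarcb1 at 9.78 ± 0.621, Arid1a at 8.39 ± 0.871, Smarcc1 at 8.09 ± 0.692, Arid2 at 7.63 ± 0.235 and Smarca2 at 7.48 ± 0.873 RPKM formed a lower tier whose neighbors also overlapped, and Arid1b was lowest at 4.96 ± 0.614 RPKM. The highest and lowest member differed 8.62-fold. After ABT-263, Pbrm1 was at 7.01 ± 0.795 RPKM (SD, n = 3), below Smarcb1 at 10.1 ± 0.784 RPKM. The order depends on the gene model for Smarcb1, whose level in DMSO skin was 46.7 ± 2.97 RPKM by its longest coding transcript, the first rank, since its merged exons contain long noncoding transcripts. By the same measure Smarca2 was at 18.03 ± 2.10 RPKM.

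Other subunits of SWI/SNF complexes were read from a list of 21 genes, of which 20 were tested. Of these 7 were lower in treated skin and 0 were higher at an adjusted p under 0.05, beside 11.7% lower and 12.4% higher over all genes tested. The median log2 fold change of the list was -0.28. At an unadjusted p under 0.05 the count was 8 and 0, and with DESeq2 7 and 0. No share over all genes is given for either of these counts. Actl6b, the neuronal actin-like subunit, was at 0 to 0.491 CPM and did not pass the filter. Without ABT-263 mouse 478 the only call left was Brd9, and without ABT-263 mouse 476 there were 3, Brd9, Ss18 and Bcl11b. Without ABT-263 mouse 477 the count stayed at 7, but Bcl7c was called lower in place of Smarcd3. Without DMSO mouse 481, Actl6a was called higher, with an adjusted p of 0.0367 in a range of 0.0367 to 0.292 over mice left out. With all mice Actl6a had the highest log2 fold change of the list, 0.36 (adjusted p = 0.143 from edgeR).

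Brd9, the bromodomain subunit of the noncanonical complex, was at 65.7, 73.4, 67.6 and 68.3 CPM after DMSO and at 35.3, 39.2 and 30.4 CPM after ABT-263. It was lower in every treated mouse, with means of 68.7 ± 3.26 CPM (SD, n = 4) and 34.97 ± 4.41 CPM (SD, n = 3) and a log2 fold change of -0.98 (standard error 0.13, 95% interval -1.26 to -0.69, adjusted p = 0.00628 from edgeR), and it passed with each mouse left out. In Brd9 65.0% of exon bases lie in introns of the longest coding transcript. Bcl11b, a zinc finger protein of T cells and keratinocytes that joins BAF, fell from 150.4 ± 20.5 CPM (SD, n = 4) in DMSO skin to 65.4 ± 24.9 CPM (SD, n = 3) in treated skin (log2 fold change -1.20, adjusted p = 0.0160 from edgeR, and 0.0615 without ABT-263 mouse 478, in a range of 0.00778 to 0.0615 over mice left out). Its relative Bcl11a was lower by a log2 fold change of -0.91 (adjusted p = 0.0313) and passed with 1 of the 7 mice left out, that mouse being 477.

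Of the alternative SMARCD subunits, Smarcd2 and Smarcd3 passed the threshold. Smarcd2 was at a log2 fold change of -0.65 (edgeR adjusted p = 0.0154, means of 187 and 119 CPM) and Smarcd3 of -0.86 (adjusted p = 0.0358, means of 82.9 and 45.8 CPM), whereas Smarcd1 was at -0.28 and did not pass (adjusted p = 0.197). Smarcd3 passed with 1 of the 7 mice left out, DMSO mouse 480. With GC and length trends taken out it did not pass (adjusted p = 0.0647, in a range of 0.0109 to 0.0647 over the 9 other settings), and 48.2% of its exon bases overlap a gene on the opposite strand. Ss18, a subunit of BAF and of the noncanonical form, was at a log2 fold change of -0.64 (adjusted p = 0.0131, means of 65.0 and 41.8 CPM) and its relative Ss18l1 of -0.95 (adjusted p = 0.0174, means of 7.19 and 3.72 CPM). Smarcd2 and Ss18l1 were lost without ABT-263 mouse 476 or 478 (highest adjusted p 0.0566 and 0.0573), and Ss18 without mouse 478 (0.0516). In Ss18 54.3% of exon bases lie in introns of the longest coding transcript. Phf10, another subunit of PBAF, was at 74.0, 58.7, 71.2 and 57.4 CPM after DMSO and at 64.9, 78.5 and 64.7 CPM after ABT-263. The groups overlapped, with a log2 fold change of 0.087 that did not pass (95% interval -0.24 to 0.42, adjusted p = 0.688). In Phf10 66.2% of exon bases lie in introns of the longest coding transcript, and 9.56% overlap a gene on the opposite strand. Actb, the cytoplasmic actin that is also a subunit and had the highest level per length of the list (774.1 RPKM in DMSO skin), was at a log2 fold change of -0.13 (adjusted p = 0.749).

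Other families of ATP-dependent remodelers were read as the groups most like SWI/SNF. In the ISWI list 4 of 14 genes were lower and 0 higher (5 and 0 at an unadjusted p under 0.05, and 4 and 0 with DESeq2), in the CHD and NuRD list 5 of 18 were lower and 3 higher, and in the INO80 and SRCAP list 8 of 20 were lower and 0 higher (11 and 1 at an unadjusted p under 0.05, and 9 and 0 with DESeq2). Over these 52 genes 17 were lower and 3 higher at an adjusted p under 0.05, with a median log2 fold change of -0.23. By that call 11.7% were lower and 12.4% higher over all genes tested. No share over all genes is given at an unadjusted p or with DESeq2. The INO80 and SRCAP count was 5 without DMSO mouse 480, 2 without DMSO mouse 481 and 1 without DMSO mouse 482 or 483 or without ABT-263 mouse 476 or 478, and it was also 1 with all genes that had a count tested. In the ISWI list 2 genes were lower without DMSO mouse 482. In the CHD and NuRD list 3 were lower without ABT-263 mouse 478, and 1 was higher without DMSO mouse 482 or 483 or any of the ABT-263 mice, while without DMSO mouse 480 there were 2. Whether these families differed from SWI/SNF was not tested.

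Within them, Bptf, the histone-reading subunit of the ISWI complex NURF, fell from 110.5 ± 9.98 CPM (SD, n = 4) in DMSO skin to 54.8 ± 9.48 CPM (SD, n = 3) in treated skin (log2 fold change -1.01, adjusted p = 0.00750 from edgeR). Chd5, a chromodomain ATPase known from neurons, was at 2.13 and 0.748 CPM, a log2 fold change of -1.50 (adjusted p = 0.0127), and Mcrs1, an INO80 subunit, at 39.2 and 24.8 CPM, a log2 fold change of -0.66 (adjusted p = 0.0139). Mbd2, the methyl-CpG-binding subunit of NuRD, moved the other way, from 53.1 ± 6.60 CPM (SD, n = 4) in DMSO skin to 107 ± 12.1 CPM (SD, n = 3) in treated skin (log2 fold change 1.01, adjusted p = 0.00641). These genes had the smallest p of their list in their direction, and all 4 passed with each mouse left out.

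**Figure D4:**
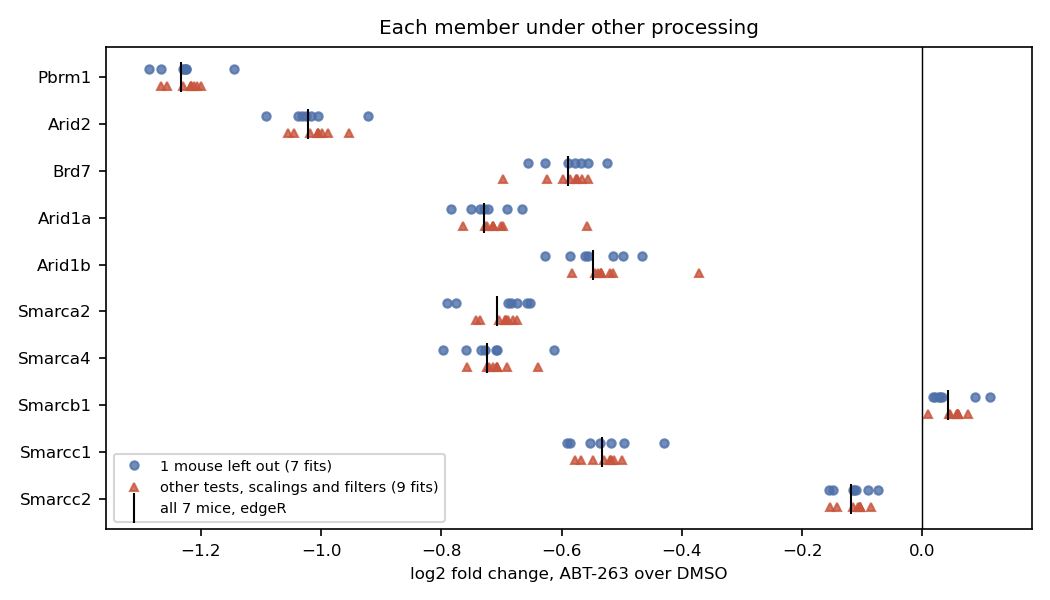
The log2 fold change of ABT-263 over DMSO (horizontal axis) of each member with all 7 mice (black line), with each mouse left out in turn (blue circles) and under 9 other tests, scalings and filters (red triangles). Pbrm1 and Arid2 stay lowest throughout, 8 of the members keep a negative value away from zero, Smarcb1 stays at or above 0.0087 and Smarcc2 between -0.16 and -0.074.

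Marker lists named for fibroblasts, macrophages, neutrophils and endothelial cells had higher sums in treated skin. The neutrophil list held S100a8, S100a9, Csf3r, Cxcr2, Ly6g and Retnlg. Which cells the RNA of each list came from was not tested. Fibroblast markers, summed over 6 genes, were at 4035 to 5777 CPM after DMSO and 8242 to 13441 CPM after ABT-263, and 4 of 6 were higher. Macrophage markers were at 221 to 656 and 658 to 1587 CPM with 5 of 6 higher, and neutrophil markers at 99.8 to 1820.3 and 5097 to 8318 CPM with 3 of 5 tested higher. Endothelial markers were at 154 to 356 and 507 to 656 CPM with 6 of 6 higher. In these 4 lists every treated mouse was above every control mouse. Among single genes over all tested, 12.4% were called higher and 11.7% lower, and 18.7% had every treated mouse above every control mouse.

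The other lists overlapped between groups. Basal keratinocyte markers were at 18066 to 31092 and 13727 to 35760 CPM (1 of 6 lower and 1 higher), suprabasal ones at 12370 to 42570.1 and 7284 to 27486 CPM, and skeletal muscle ones at 24545 to 52696 and 17921 to 26917 CPM (1 of 6 lower). For skeletal muscle only DMSO mouse 480, at 24545 CPM, lay within the range of the treated mice. The other controls, at 36871 to 52696 CPM, were above it. T cell markers were at 11.1 to 20.6 and 9.95 to 39.4 CPM, adipocyte markers at 598 to 1632 and 701 to 2009.8 CPM, and hair follicle markers at 10.6 to 2590.0 and 8.12 to 530.9 CPM. The hair follicle sum was high only in DMSO mouse 481 (2590.0 CPM) and ABT-263 mouse 478 (530.9 CPM), and was at most 31.5 CPM in the other mice. No marker of any list was at 0 in every library. The labelled tissue, skin, thus held its keratinocyte markers together with much muscle RNA. The part of these markers' cells in the values of the SWI/SNF subunits was not tested.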

How the data were processed

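Bulk RNA of dorsal skin from 7 mice was sequenced. Per the submitters' notes and the paper's methods, the authors aligned reads to mm10 with STAR 2.7.9a and counted uniquely aligned proper pairs on the same strand per Ensembl gene with featureCounts (Subread 1.6.2), leaving out mitochondrial genes. The deposited counts are raw. The authors also deposited values stabilized for variance with DESeq2 1.23.10, close to a log2 scale, which were used only as an alternative. The labels and the paper name different RNA extraction kits.

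Counts were tested in R 4.3.3 with edgeR 4.0.16 (TMM, filterByExpr, robust quasi-likelihood test, two-sided, no covariate), with Benjamini-Hochberg adjustment over 17959 genes and a threshold of 0.05. Adjusted p-values are from this test unless another is named. Symbols, positions and exon lengths came from GENCODE M21 (GRCm38, the assembly also called mm10), which held 55104 of 55450 identifiers and is not the annotation the authors counted on. Bap18 was found under its RefSeq synonym 0610010K14Rik. Alternatives were the DESeq2 1.42.0 Wald test with and without its filters, DESeq2 size factors, every gene with a count, at least 10 counts in every library, protein-coding genes only, the GC and length trends of transcripts taken out (mgcv 1.9.3), counts thinned to the smallest library, limma 3.58.1 on the variance-stabilized values, and each mouse left out. Level by the longest coding transcript was added after seeing the data.

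The members and gene lists were chosen with earlier results of these data known. Named genes are all members, other SWI/SNF subunits past the threshold and the most abundant of them, in each other family the gene with the smallest p in each direction among those past the threshold, and the 3 protein-coding genes most correlated with Pbrm1. Phf10, Actl6a, Actl6b, Bcl7c and Smarcd1 lie outside this rule and were named after their values were seen. The mice are separate animals and the labels name no batch.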

Additional observations from a re-analysis of the deposited data

Results flagged for a closer look

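In 14 per-mouse measures of the set, 3 had a DMSO mouse set apart from the other 3 by more than Dixon's 95% critical value for 4 samples, where chance would give 0.7. Pbrm1 in mouse 480 was at 136 CPM against 148 to 149.5 CPM in the others, a gap of 0.909 of the whole range. Smarca2 in mouse 480 was at 88.2 CPM against 112 to 115 CPM, a gap of 0.885 of the range. Smarcc2 in mouse 483 was at 83.0 CPM against 89.4 to 89.7 CPM, a gap of 0.952 of the range. Without mouse 480 the log2 fold change of Smarca2 was -0.79, and it passed the threshold with and without that mouse.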

How the results depend on the processing

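No paired analysis was possible because the mouse numbers in the labels are not shared between the groups. With each mouse left out in turn, 4 to 7 of the 9 members besides Pbrm1 were called lower, 1 to 7 of the other SWI/SNF subunits were lower and 0 to 1 higher, and in the other remodeler families 7 to 16 genes were lower and 1 to 3 higher. Testing every gene with a count, 5 members were lower, and the other families had 9 genes lower and 1 higher. With trends on length and GC content removed, 6 members were lower, the Smarca2 to Smarca4 log2 difference changed sign to -0.078 and the difference between PBAF and BAF subunits was -0.37. That log2 difference of the ATPases also changed sign without DMSO mouse 480 (-0.077) and without ABT-263 mouse 478 (-0.15), within -0.15 to 0.15 over all mice left out. The cause was not tested. The Smarcc1 to Smarcc2 log2 difference stayed between -0.50 and -0.35 with each mouse left out, the PBAF and BAF difference between -0.20 and -0.14, and the fold between the highest and lowest level per length between 8.07 and 9.04. Members were read at 1054 counts or more per library, and the smallest exact p that 4 against 3 mice allow is 0.0286. Error from counting and spread between mice were not separated.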
